A study of Homo sapiens with 18 samples.

Results

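Densely clustered GR binding regions (GBR) were taken from the siHic5/siNS peak list, that is, from cells in which Hic-5 was depleted before dex was given. They were chosen by chaining GBR on the same chromosome whose consecutive summits lay at most 12500 bp apart and keeping every chain of 3 or more. This rule gave 364 chains with 1291 member GBR, 13.5% of the 9533 GBR in that list. A further 2090 GBR had a single neighbor in a chain of their own, and 6152 lone GBR had no neighbor within that distance. Because the members were selected on the siHic5/siNS list, their presence there is the rule itself, and what was measured is where else each of them was called.

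The cells were U2OS-GRα, a derivative of the established human osteosarcoma line U2OS that stably expresses GRα, so a single stable line represents all conditions. All samples were transfected with a pair of siRNAs for 48 h and then received 100 nM dexamethasone (dex) for 1 h. The 6 combinations were siNS/siNS (nonspecific siRNA only), siHic5/siNS (Hic-5 depleted), siCHD9/siNS and siBRM/siNS (a chromatin remodeler depleted, Hic-5 present), and siCHD9/siHic5 and siBRM/siHic5 (double depletions). There were 12 ChIP libraries, 2 per combination, and 6 input libraries. The deposited lists hold 1 set of GBR per combination made from the pooled replicates, so the replicate spread is unknown. Intervals below are 95% Wilson intervals and cover counting error only. Neighbors in a chain are not independent of each other, which such intervals ignore. The lists held 1278 to 9533 GBR, and their lowest −log10 q-value ran from 7.26 to 14.2, and GR below a list's cutoff is not seen in it.

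GR is a nuclear receptor that enters the nucleus on hormone binding and recognizes the glucocorticoid response element (GRE), a palindrome bound by a receptor dimer, or reaches DNA through other factors such as AP-1. Hic-5 (TGFB1I1) is a LIM domain protein of focal adhesions that also acts in the nucleus as a coregulator of steroid receptors, and CHD9 and BRM are ATP-dependent chromatin remodelers. Binding regions for nuclear receptors often lie in groups along the regulatory DNA of a responsive gene.

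The GRE matches of several chains are shown first, because the letters under each summit can be read against where that GBR was called. A match was the arms GNACA and TGTNC separated by 3 bases, with at most 1 mismatch over the 8 defined positions, within 200 bp centered on the summit. The pattern reads the same on both strands. The 13 bases of the match are in capitals, coordinates are GRCh38/hg38, the plus strand is given, and members are numbered along the chromosome. The first set comes from a chain of 6 GBR in an intron of ZBTB16, a zinc finger transcription factor, in which every member was also called in siNS/siNS. Members 1 and 2 of this chain held no match.
ZBTB16 member 3, chr11:114160197-114160226: acttgtggGTACAGTATGTACagtgagtgc
ZBTB16 member 4, chr11:114163009-114163038: gcctccaaGAACACACTGTACccaaagcag
ZBTB16 member 5, chr11:114171528-114171557: ccctcagaGGACAGCATGTAActgtgcttc
ZBTB16 member 6, chr11:114179449-114179478: ctgcgtctGTACTCATTGTTCtgacagctt
Members 3 and 4 matched all defined positions, while members 5 and 6 had 1 mismatch each.

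The second set comes from the FKBP5 chain of 6 GBR, where members 1, 3, 4 and 6 were called in all 6 lists and members 2 and 5 in siHic5/siNS only. FKBP5 encodes a co-chaperone of steroid receptors and is a classical glucocorticoid target.
FKBP5 member 1, chr6:35715575-35715604: ggcagcagGAACGGCATGTACaaaggctca
FKBP5 member 2, chr6:35720554-35720583: aacaggaaGTACAAGATGTGTcaatgcagg
FKBP5 member 3, chr6:35722595-35722624: tccaacctGCACTCCATGTCCagccagacc
FKBP5 member 4, chr6:35728106-35728135: cggggctgGAACACAATGTCCcgagcgggc
FKBP5 member 5, chr6:35729899-35729928: tcaaccaaGCACAGTGAGTACactagctaa
FKBP5 member 6, chr6:35732011-35732040: gagcgaaaGAACATCCTGTGCccgtcgccg
All 6 members held a match, without mismatch at members 4 and 6 only, so the members called only without Hic-5 did not differ from members 1 and 3 in the number of mismatches.

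The third set comes from the longest chain, 9 GBR over 56.4 kb of intergenic DNA between ERRFI1, a feedback inhibitor of EGF receptor signaling, and SLC45A1, a sugar transporter. Members 6, 7 and 8 were called in cells containing Hic-5 and the other 6 were called in siHic5/siNS only.
ERRFI1/SLC45A1 member 2, chr1:8168126-8168155: ggctccagTCACATCCTGTCCcttcagaag
ERRFI1/SLC45A1 member 3, chr1:8169895-8169924: ggccagtgAGACAGGATGTTCtgcagagca
ERRFI1/SLC45A1 member 4, chr1:8182286-8182315: gatgtcaaGAACATTTTGTAAatattacaa
ERRFI1/SLC45A1 member 5, chr1:8184500-8184529: aggggtttGGACTGAATGTGCttggtggaa
ERRFI1/SLC45A1 member 6, chr1:8190087-8190116: ttgtccttGGCCAGAATGTGCtgcaccctg
ERRFI1/SLC45A1 member 7, chr1:8198096-8198125: atccccagGGTCAGGGTGTGCctcgttgcc
ERRFI1/SLC45A1 member 8, chr1:8202776-8202805: gactcagaAGACAGCGTGTCCcctgcctgc
Every match in this chain carried 1 mismatch, on both sides of the call, and members 1 and 9 held none.

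The fourth set comes from 2 chains with no member called in any cells containing Hic-5. The IRF2BPL chain has 7 GBR and the CSF3/MED24 chain has 3. Members 1, 2, 3, 5 and 6 of the IRF2BPL chain and member 1 of the CSF3/MED24 chain held no match. CSF3 encodes granulocyte colony-stimulating factor and MED24 a subunit of Mediator.
IRF2BPL member 4, chr14:77040208-77040237: ttttcattGTACAGTCTGCACtggtgacac
IRF2BPL member 7, chr14:77052436-77052465: actaaagaGAACAAGTGGTTCtaactcagg
CSF3 member 2, chr17:40015648-40015677: gtggtaggGAACAGCATGTCTcctgagccc
CSF3 member 3, chr17:40021610-40021639: agtcaatgGCACAGGCTGTGCctgaggcag
CSF3 member 3 matched every defined position and was nonetheless absent from the 3 lists of cells containing Hic-5.

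Most chains were short. There were 248 chains of 3 GBR, 70 of 4, 24 of 5, 13 of 6, 5 of 7, 2 of 8 and 2 of 9. The median span between outermost summits was 10.9 kb, with a range of 1.74 to 56.4 kb, and the median distance between adjacent members was 3.84 kb. The widest gap inside a chain was 12496 bp and the narrowest gap just outside the rule was 12517 bp. In 84 of the 927 gaps the summits lay under 1 kb apart, close to the length of a sonicated fragment.

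The members were stronger than lone GBR within the list that selected them. Their median −log10 p-value was 26.6 against 21.1 for lone GBR and 22.4 for all GBR. Of the 100 strongest GBR of the list, 38 were members, 24 were in chains of 2 and 38 were lone. Of the 1000 strongest, 22.9% were members and 50.8% were lone. Members lay at promoters (within 1 kb of a TSS) in 3.41%, in introns in 41.5%, in exons in 1.70% and between genes in 53.4%. The corresponding values for lone GBR were 5.17%, 44.5%, 2.24% and 48.1%. Of the 364 chains, 50 spanned a protein-coding TSS and 158 touched no protein-coding gene. The share of GBR that were members differed between chromosomes, from 4.55% on chromosome X to 20.9% on chromosome 17, 22.7% on chromosome 20 and 25.3% on chromosome 22. DNA copy number was not tested.

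With Hic-5 present, 424 of the 1291 members (32.8%, interval 30.3 to 35.5) were called in siNS/siNS. The share was 26.0% over all 9533 GBR and 23.2% (22.1 to 24.3) over lone GBR. Depletion of CHD9 with Hic-5 present left 271 members called (21.0%, against 14.5% of all GBR and 769 of the 6152 lone GBR). Depletion of BRM with Hic-5 present left 241 (18.7%, against 13.1% and 11.3%). When Hic-5 was depleted together with CHD9, 409 members were called (31.7%, against 24.6% and 22.1%). When it was depleted together with BRM, 535 members were called (41.4%, against 34.6% and 32.2%). In all 5 lists the share was higher among members than among lone GBR, and the intervals did not overlap. For the 2090 GBR with a single neighbor the share lay between these in all 5. It was 29.9% (27.9 to 31.9) in siNS/siNS, 27.5% (25.6 to 29.5) in siCHD9/siHic5 and 37.5% (35.4 to 39.6) in siBRM/siHic5. These intervals overlapped those of members (30.3 to 35.5, 29.2 to 34.3 and 38.8 to 44.1). In siCHD9/siNS (16.3%, 14.7 to 17.9) and siBRM/siNS (14.7%, 13.3 to 16.3) the intervals lay below those of members.

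**Figure D1:**
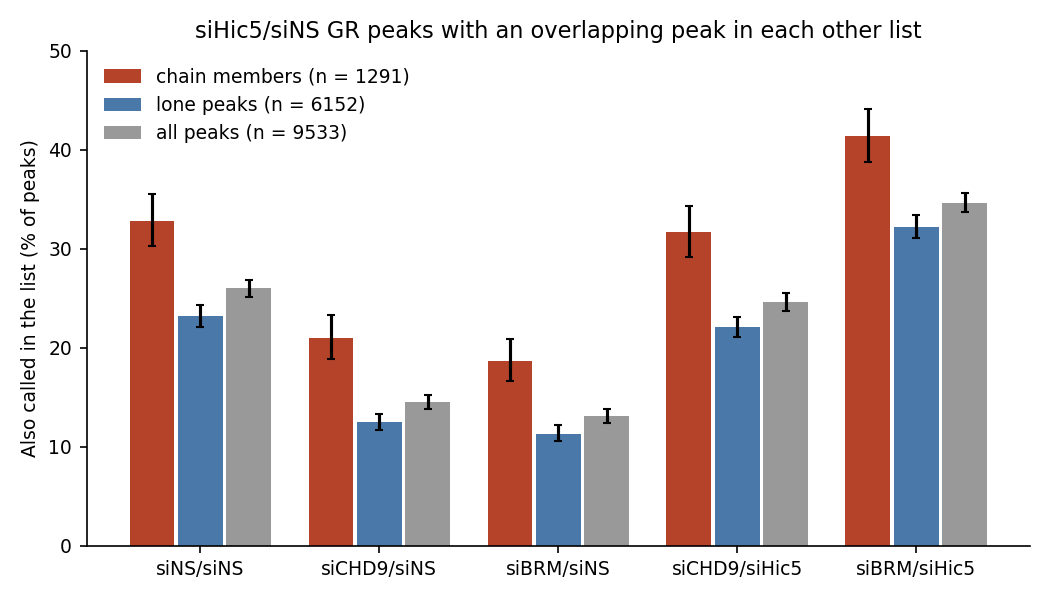
Percent of siHic5/siNS GBR with an overlapping GBR in each of the other 5 lists, for the 1291 chain members, the 6152 lone GBR and all 9533 GBR. Bars start at 0 and error bars are 95% Wilson intervals. The bar for chain members is the tallest for every list, from 18.7% in siBRM/siNS to 41.4% in siBRM/siHic5.

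In any of the 3 lists of cells containing Hic-5, 447 members were called (34.6%, against 27.8% of all GBR). The other 844 members were called only without Hic-5. Of the 447, 23 were missing from siNS/siNS, and these came from siCHD9/siNS in 19 cases and from siBRM/siNS in 4. Members called in both double depletions numbered 359 (27.8%, against 21.0% of all GBR). Members called in all 6 lists numbered 191 (14.8%, against 9.25% of all GBR and 7.74% of lone GBR). The largest pattern was a call in siHic5/siNS alone, held by 674 members (52.2%, against 58.7% of all GBR and 61.4% of lone GBR). The next patterns after the call in every list were siHic5/siNS with siBRM/siHic5 alone (97 members, 7.51%, against 8.01% of lone GBR) and siHic5/siNS with siNS/siNS and siBRM/siHic5 (49 members, 3.80%, against 3.59%), both near the shares of lone GBR.

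The higher shares went with strength. When all GBR were divided into quartiles of −log10 p-value, at 15.8, 22.4 and 38.0, the top quartile held 34.6% of the members and 21.7% of the lone GBR. Within quartiles, the shares called in siNS/siNS lay close together. In the top quartile 75.6% of members (71.4 to 79.4) and 71.5% of lone GBR (69.1 to 73.9) were called, and in the third quartile 20.5% (16.5 to 25.1) and 21.4% (19.4 to 23.5). In the lowest quartile the values were 1.61% and 2.20%. Even within the top quartile the members were stronger, with a median of 69.7 against 58.5. For siBRM/siHic5 the third quartile gave 31.3% of members (26.6 to 36.5) and 37.4% of lone GBR (35.0 to 39.9), the reverse order of the undivided comparison.

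**Figure D2:**
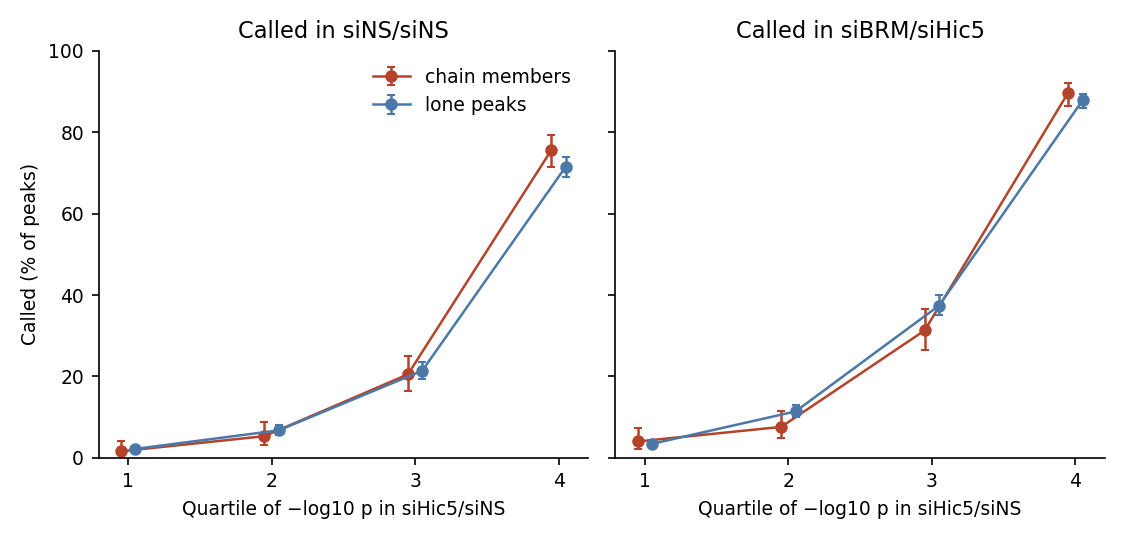
Percent of GBR called in siNS/siNS (left) and siBRM/siHic5 (right) by strength quartile, the quartiles being set on the −log10 p-values of siHic5/siNS, for chain members and lone GBR. Error bars are 95% Wilson intervals. The siNS/siNS curves nearly coincide, at 20.5% and 21.4% in the third quartile and 75.6% and 71.5% in the top quartile.

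Counted by chain, most chains were divided between members called with Hic-5 present and members that were not. With 32.8% of all members called in siNS/siNS, divided chains are frequent even where calls do not depend on the chain. No expected share was computed. In siNS/siNS, 119 chains (32.7%) had no member called, 10 (2.75%) had every member called, and 235 (64.6%, interval 59.5 to 69.3) were mixed, with both called and uncalled members. Over all lists of cells containing Hic-5, 110 chains had no member called, 242 had some and 12 had all. Mixed chains were 57.7% of the chains of 3, 80.0% of the chains of 4 and 78.3% of those with 5 or more. Longer chains have more members that can differ, and their strongest member was also stronger, with a median of 46.9, 76.4 and 90.4 in these size classes.

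In mixed chains the call followed the rank of the member. The strongest member was called in siNS/siNS in 212 of the 235 mixed chains (90.2%, interval 85.7 to 93.4), and in 199 (84.7%) the called members were exactly the strongest ones. In 125 mixed chains a single member was called. The 390 called members of mixed chains had a median −log10 p-value of 70.3, and the 475 uncalled ones 20.2. An uncalled member lay a median of 5.41 kb (quartiles 2.53 and 9.72) from the nearest called member of its own chain. Members at the ends of a chain were called in 29.5% and inner members in 37.1%, and their median strengths also differed, at 24.9 and 29.6.

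The same order held in the other lists. Among chains partly called in a list, the strongest member was called in 93.4% for siCHD9/siNS, 92.6% for siCHD9/siHic5, 90.7% for siBRM/siNS and 94.4% for siBRM/siHic5. Over all 364 chains, siNS/siNS called 61.0% of the strongest members, 34.6% of the second-ranked and 12.6% of those ranked the third. The double depletion siBRM/siHic5 called 75.5%, 43.4% and 17.6% of these ranks, and siBRM/siNS 40.4%, 17.3% and 5.22%. The median strengths of the 3 ranks were 61.7, 30.0 and 17.7.

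**Figure D3:**
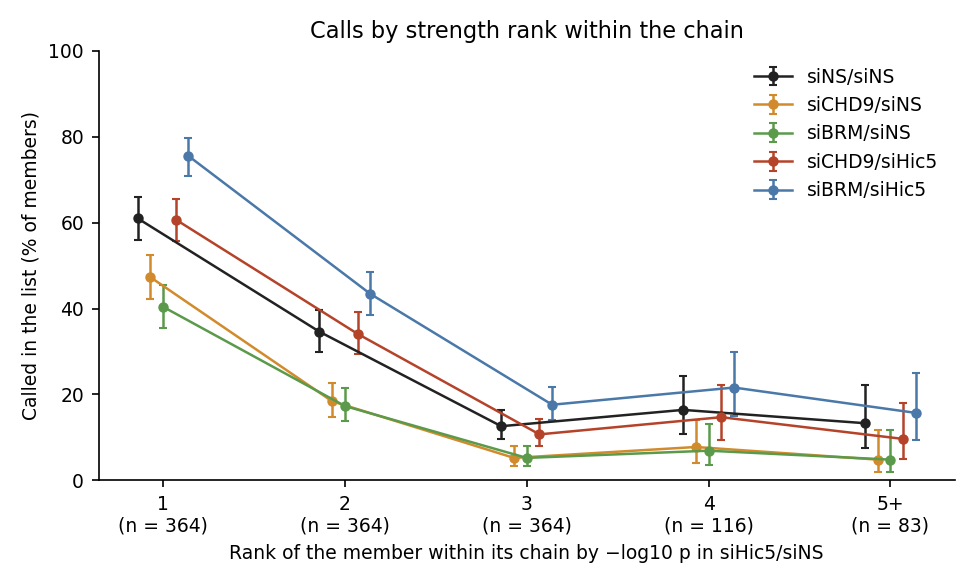
Percent of members called in each of the 5 other lists by rank of the member within its chain, rank 1 being the highest −log10 p-value in siHic5/siNS and rank 5+ pooling all later ranks. Error bars are 95% Wilson intervals and n is given under each rank. Every curve drops steeply to rank 3, for siNS/siNS from 61.0% to 12.6%.

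Few chains were dense in any other list. At least 3 members were called in 41 chains in siNS/siNS, 16 in siCHD9/siNS, 39 in siCHD9/siHic5, 15 in siBRM/siNS and 59 in siBRM/siHic5. Chaining each list by the same rule gave 50, 19, 47, 15 and 68 chains. Short lists leave fewer neighbors to chain, so the siHic5/siNS list was also reduced to its strongest GBR until it was as long as each of these lists. It then held 38, 13, 36, 11 and 63 chains, fewer than the list of the same length in each case. Hardly any GBR of the other lists lay in the spans of the 364 chains without overlapping a member. There were 2 of 440 in siNS/siNS, 2 of 544 in siBRM/siHic5 and 0 in the remaining 3 lists. Few could lie apart anywhere in the genome. The siNS/siNS list held 2582 GBR, and 2474 siHic5/siNS GBR overlapped one of them. For siBRM/siHic5 these values were 3383 and 3302. Whether the share lying apart differed between the spans and the rest of the genome was not tested.

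The neighbor's call was examined for adjacent GBR over the whole siHic5/siNS list. When the stronger GBR of an adjacent pair was called in siNS/siNS, the weaker was called in 28.4% (23.3 to 34.1) at distances up to 2 kb, 27.6% at 2 to 5 kb, 93 of 372 cases from 5 kb to the chaining distance, 19.8% from there to 50 kb, 15.3% at 50 to 200 kb and 14.2% (12.3 to 16.3) beyond 200 kb. When the stronger GBR was not called, the weaker was called in 5.60% to 6.12% at every distance. The weaker GBR was itself stronger at short distances beside a called GBR, with a median of 22.3 up to 2 kb and 18.4 beyond 200 kb. Within the third strength quartile, the weaker GBR of pairs within the chaining distance was called in 64 of 254 cases (25.2%, 20.3 to 30.9) beside a called GBR and in 21 of 172 (12.2%, 8.13 to 17.9) beside an uncalled one, at median strengths of 28.2 and 26.2. From the chaining distance to 200 kb the values of this quartile were 19.7% (16.4 to 23.5) and 17.1% (13.4 to 21.4). The lowest quartiles gave the same order within the chaining distance with overlapping intervals, 10.2% beside a called GBR and 5.59% beside an uncalled one in the second quartile. In the top quartile the values were 75.2% and 42.4% within the chaining distance and 65.9% and 42.4% from there to 200 kb, so that a called neighbor went with more calls at both distances, but the weaker GBR were also stronger beside a called one, at 54.6 against 43.7 within the chaining distance.

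The remodelers were followed through the same members. Of the 271 members called in siCHD9/siNS, 95.6% were also called in siCHD9/siHic5, which called 409. For BRM, 98.8% of the 241 members called in siBRM/siNS were also called in siBRM/siHic5, which called 535. The same overlap was not computed for lone GBR, so these shares are not read as particular to chains. Members already called with Hic-5 present were mostly called in the double depletions, 336 of 447 (75.2%, 71.0 to 78.9) in siCHD9/siHic5 and 400 (89.5%, 86.3 to 92.0) in siBRM/siHic5. The shares were 66.1% (63.7 to 68.4) and 85.0% (83.1 to 86.7) for lone GBR called with Hic-5 present, of lower median strength (49.3), and 68.4% and 85.4% for all such GBR. Members called only without Hic-5 were seldom called there, 73 of 844 (8.65%, 6.94 to 10.7) and 135 (16.0%, 13.7 to 18.6). The median strengths of the members called with and only without Hic-5 were 67.3 and 20.0. Lone GBR called only without Hic-5 gave 7.36% and 14.6%, and the intervals overlapped those of the members.

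Mixed and wholly uncalled chains gave overlapping intervals here. Of members called only without Hic-5 in chains with a member called in siNS/siNS, 9.76% (7.38 to 12.8) were called in siCHD9/siHic5 and 15.2% (12.2 to 18.7) in siBRM/siHic5. In chains with no member called with Hic-5 present the values were 7.28% (5.02 to 10.5) and 17.6% (14.0 to 21.9). The median strength of the strongest member was 29.3 in these 110 chains and 76.9 in the 242 with some members called. Of the 110 chains, 19 had a member called in siCHD9/siHic5, 48 in siBRM/siHic5, 12 had a member called in both, and 57 (51.8%) had none in either.

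The ZBTB16 chain had the highest summed strength of the 10 chains wholly called in siNS/siNS. The −log10 p-values of its members 2 to 6 in siHic5/siNS were 143, 224, 240, 196 and 287, and that of member 1 was 50. Members 2 to 6 were called in siCHD9/siHic5 and in siBRM/siNS, and member 1, the weakest, was called in neither of them. A wholly called chain of 3 GBR lay in an intron of TTI1, a partner of the kinase-stabilizing protein TELO2. Its members had values of 40.5, 208 and 89.2. The weakest was absent from siCHD9/siNS and siBRM/siNS and present in both double depletions.

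The FKBP5 chain gave 90.1, 33.7, 199, 313, 31.5 and 283 along the chromosome. Members 2 and 5, the weak ones, were the 2 called in siHic5/siNS only, and each lay between members called in every list. The DDIT4 chain, 13.2 kb upstream of the TSS of this inhibitor of mTORC1 signaling, gave 206, 103, 258, 245, 90.2 and 29.9. Its first 4 members were called in every list, the fifth was missing from siCHD9/siNS and siBRM/siNS, and the sixth was called only in siHic5/siNS and siBRM/siHic5. Near PTPN1, a tyrosine phosphatase, a chain of 8 GBR gave 259, 18.8, 189, 34.5, 16.2, 83.7, 42.6 and 24.1. The summits of this chain lay 59.0 kb or more from the PTPN1 TSS. Here the order by strength was broken, since member 2 (18.8) was called in siBRM/siNS and siCHD9/siHic5 and member 8 (24.1) in siNS/siNS, while member 4 (34.5) was called in no cells containing Hic-5.

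Among the longest chains, that between ERRFI1 and SLC45A1 gave 17.8, 23.5, 12, 23.9, 14.8, 72.9, 91.4, 102 and 17.7. The 3 called members were consecutive and all above the other 6. The chain of 9 GBR in PLB1, which encodes a phospholipase, gave 27.7, 62.1, 45.8, 16.6, 54.4, 63.7, 56.5, 13.6 and 21.2. Its 5 members above 45 were called in siNS/siNS and the other 4 in siHic5/siNS only. Called and uncalled members were interleaved along this chain, unlike the chain between ERRFI1 and SLC45A1.

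A chain of 8 GBR in the gene desert beside SOX9, the chondrocyte transcription factor, gave 23.6, 15.3, 15.2, 45.1, 21.8, 30.6, 12.3 and 64.3. Member 4, the second strongest, was called in both double depletions and in no cells containing Hic-5, while the weaker member 6 was called in siNS/siNS and member 1 in siCHD9/siNS. A separate chain of 6 GBR on the other side of SOX9, closer to its TSS, gave 96.0, 42.9, 21.9, 28.7, 12.1 and 14.8, and only its first member was called elsewhere, in siBRM/siNS and both double depletions. Near CD180, a Toll-like receptor homolog of B cells, a chain of 7 gave 12.1, 56.4, 135, 109, 20.0, 23.9 and 158. The summits of this chain lay 38.1 kb or more from the CD180 TSS. The 4 members above 50 were called in siNS/siNS and in both double depletions, and the remaining 3 in siHic5/siNS only.

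In an intron of RAD51B, a gene of homologous recombination, a chain of 7 GBR gave 19.3, 21.9, 21.6, 54.7, 17.3, 133 and 14.8. Member 6 was called in all lists. Member 4 was called in both double depletions only, and the weak member 5 in siCHD9/siNS and siCHD9/siHic5.

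Chains with no member called in cells containing Hic-5 differed in the double depletions that called them. At IRF2BPL, a nuclear zinc finger protein gene, the 7 values were 25.8, 17.7, 73.2, 42.4, 42.4, 30.0 and 13.9. Members 3, 4 and 6 were called in both double depletions, and member 1 at the promoter in neither. At CSF3 the 3 values were 18.4, 71.5 and 68.7, and members 2 and 3 were called in both double depletions. In an intergenic chain whose nearest TSS was that of BCAS1, the values were 53.0, 37.5 and 22.6, with members 1 and 2 called in both. Its summits lay 170 to 177 kb from that TSS. In an intron of GRAMD4 the values were 47.4, 58.4 and 67.3. All 3 GRAMD4 members were called in siBRM/siHic5 and none in siCHD9/siHic5, and no GRE match was found at any of them.

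**Figure D4:**
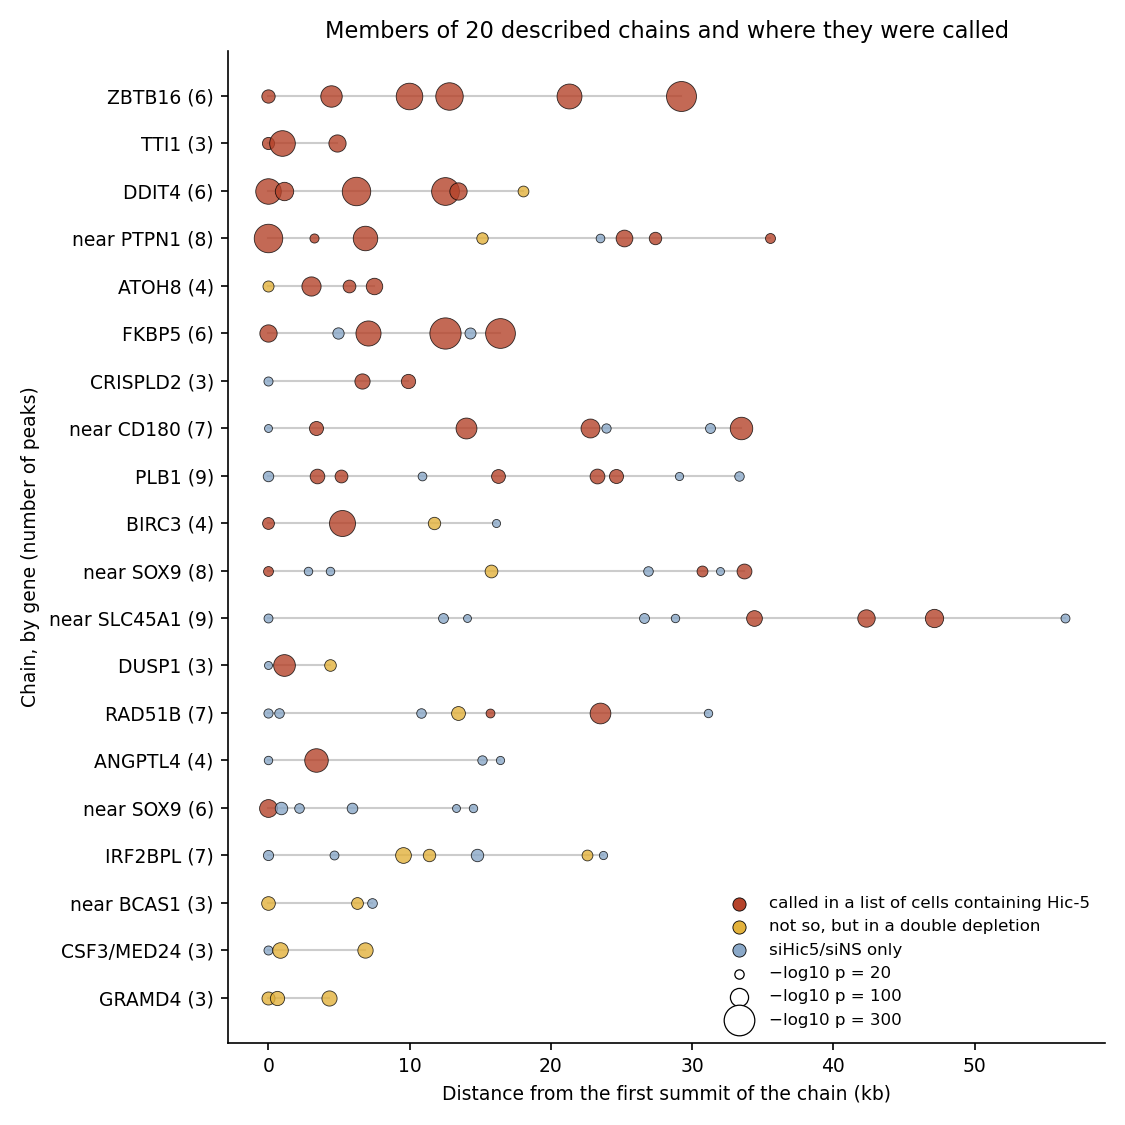
Members of 20 described chains by distance from the first summit of the chain in kb, with point area rising with −log10 p-value in siHic5/siNS and color for the lists in which a member was called. Chains are ordered by the share of members called in cells containing Hic-5, from GRAMD4 with 0 of 3 to ZBTB16 with 6 of 6. In chains with both kinds, most small points are blue, as in the FKBP5 chain, where the 2 weak members were called in siHic5/siNS only.

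Chains near known glucocorticoid targets were counted for a list of 48 genes. All gene lists used here were chosen with earlier results of these data known, so the shares below are a description only. A chain member lay within 50 kb of the TSS of 9 of the 48 genes (18.8%, 10.2 to 31.9), against 419 of 19970 protein-coding genes (2.10%). Any siHic5/siNS GBR lay that close to 39 of the 48, against 27.2% of all genes. Among genes with any GBR in reach, 23.1% of the list and 7.72% of all genes had a chain. The other lists gave 1 of 25 osteoblast and mesenchymal genes (FOSL2, an AP-1 subunit), 3 of 25 focal adhesion and actin genes (ITGB1 and ITGA5, integrin subunits, and TLN1, talin), 0 of 21 TGF-beta pathway genes, 1 of 20 hepatocyte genes (PCK1, of gluconeogenesis) and 0 of 20 neuronal genes. The chains in reach of FOSL2, TLN1 and PCK1 had no member called in siNS/siNS or in either double depletion. They lay 0.184, 42.3 and 13.7 kb from these TSSs. For the chain counted for TLN1, the nearest TSS was that of TPM2. ITGB1 had 2 chains of 3 in reach. In the chain at its promoter no member was called with Hic-5 present and 1 was called in siBRM/siHic5, and in the chain 34.8 kb from the TSS 1 member was called in siNS/siNS. The chain at ITGA5 had 1 member called in siNS/siNS.

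The 9 glucocorticoid targets had 10 chains in reach, since GADD45B had 2. Each of the 10 had at least 1 member called with Hic-5 present, and each also had a member that was not. Over all 364 chains, 242 (66.5%) were divided in this way. Chain strength was not matched in this comparison. The FKBP5 and DDIT4 chains are described above. At DUSP1, a MAP kinase phosphatase, the values of members 2 and 3 were 147 and 36.2, with member 1 the lowest, and only member 2, 1.34 kb from the TSS, was called with Hic-5 present. The weak member 1 lay at the DUSP1 promoter.

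At ANGPTL4, an inhibitor of lipoprotein lipase, the values were 15.0, 174, 20.6 and 13.8, and only the second was called outside siHic5/siNS, in every list. At BIRC3, an inhibitor of apoptosis, they were 37.5, 214, 42.1 and 13, and the last, at the promoter, was called in siHic5/siNS only. The order by strength was broken here, since member 1 (37.5) was called in siNS/siNS and member 3 (42.1) in no cells containing Hic-5. The promoter members of the BIRC3 and DUSP1 chains were both among those called only without Hic-5, and each was the weakest of its chain. Both fell in the lowest strength quartile, where only 2.01% of members and 2.37% of lone GBR were called with Hic-5 present. At CRISPLD2, a secreted lipopolysaccharide-binding protein, the values were 18.6, 67.9 and 58.6, and the last 2 were called in siNS/siNS. The chain 40.7 kb from the TSS of ATOH8, a basic helix-loop-helix factor, gave 31.7, 113, 45.2 and 80.8, with the last 3 called in siNS/siNS. GADD45B, a stress sensor gene, had chains of 3 at 15.6 kb and 42.3 kb from its TSS, each with 1 member called in siNS/siNS.

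GRE matches were less frequent in chains. Within 200 bp of the summit, 670 of 1291 members held a match (51.9%, 49.2 to 54.6), against 63.0% of lone GBR (61.8 to 64.2), 60.0% of all GBR and 6.40% of windows 20 kb to either side. The share was lower among members in every strength quartile. It was 39.0% against 54.8% in the lowest quartile, 41.8% against 59.2% and 46.4% against 65.4% in the next 2, and 69.1% (64.7 to 73.2) against 75.2% (72.8 to 77.5) in the top quartile, the only one in which the intervals met. The AP-1 word TGACTCA was found at 19.5% of members and 19.2% of lone GBR, against 3.19% of the windows to either side. The ETS words CAGGAAG or CCGGAAG, on either strand, were found at 18% of members (16.0 to 20.2) and 14.1% of lone GBR (13.3 to 15.0), against 7.29% of those windows. Mean GC content of the windows was 52.4% (SD 9.33 across GBR) for members and 48.8% (SD 9.48) for lone GBR, and its part in these shares was not tested.

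Members called with Hic-5 present held a GRE match in 67.8% (63.3 to 71.9) and those called only without Hic-5 in 43.5% (40.2 to 46.8), at median strengths of 67.3 and 20.0. Matches at every defined position were found in 25.1% and 8.77%. Lone GBR gave 75.2% and 58.9%. The strongest member of a chain held a match in 64.8% and the other members in 46.8%. In 41 chains (11.3%) no member held a match, and 133 chains had matches at 2 members. A match describes the letters in this window and not a bound site, and its absence says only that these letters were not found.

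Over the whole list, GRE matches among GBR called only without Hic-5 went with the distance to the nearest other summit. The share was 61.1% (59.3 to 62.8) beyond 50 kb, 55.1% from the chaining distance to 50 kb, 49.5% from there down to 5 kb, 47.1% at 2 to 5 kb, 41.8% (37.3 to 46.4) at 1 to 2 kb and 45.9% (39.8 to 52.2) under 1 kb. Median strength in these bins moved the other way, from 17.8 beyond 50 kb to 20.2 under 1 kb. Among GBR called with Hic-5 present the share stayed between 67.4% and 77.2%, with no steady order. Leaving out GBR within 1 kb of a stronger one gave 52.2% of members with a match.

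**Figure D5:**
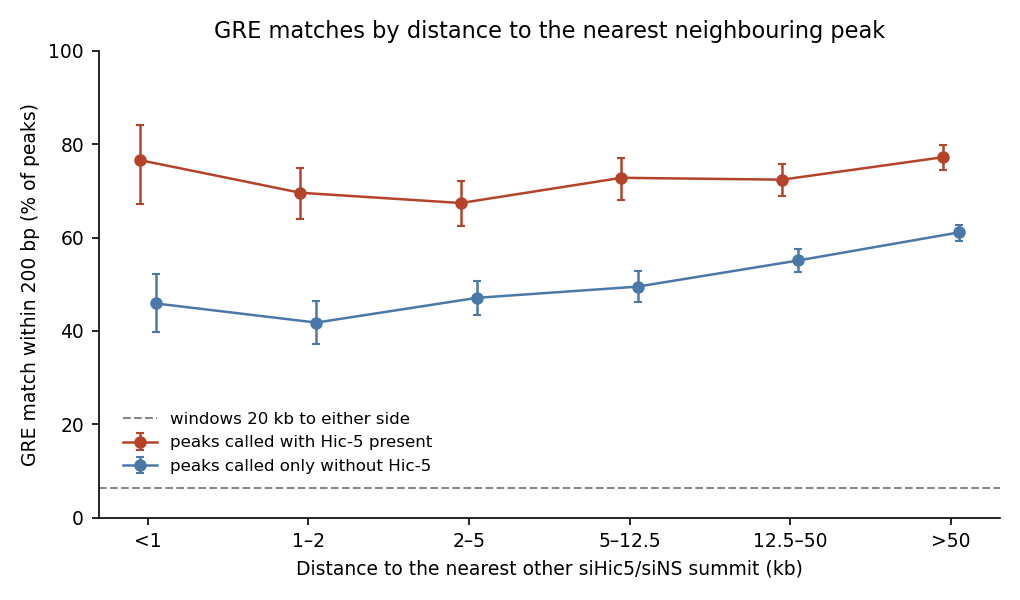
Percent of siHic5/siNS GBR with a GRE match within 200 bp of the summit by distance to the nearest other summit in kb, for GBR called with Hic-5 present and for those called only without Hic-5. Error bars are 95% Wilson intervals and the dashed line marks windows 20 kb to either side (6.40%). For GBR called only without Hic-5 the share drops from 61.1% beyond 50 kb to 41.8% at 1 to 2 kb.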

How the data were processed

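ChIP-seq of GR comprised 12 ChIP and 6 input libraries. Per the study's methods and the labels, the authors mapped reads to GRCh38/hg38 with BWA and called GBR with MACS2 and the IDR framework on pooled replicates. Tool versions and the IDR threshold are not given in the sources used here, and read depth was not recomputed, since the lists hold no reads. The deposited lists give the position, summit and significance of each GBR, the last as −log10 p-value and as −log10 q-value, which the authors obtained from MACS2. These −log10 values grow with depth. They were used only within a list, except in the alternative where every list was filtered at a common −log10 q-value.

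Columns 2 and 10 gave the summit. Samples were grouped from the labels. Adjacent summits at most 12.5 kb apart were chained, and chains of 3 or more were kept. A member was called in a list when it overlapped a GBR there by at least 1 bp. Lists had no replicates, so no test was made. The members, gene lists and rules were chosen with earlier results of these data known. The chains named were the 5 with the most GBR, the 3 with the highest summed −log10 p-value that were wholly, partly or not called in siNS/siNS, the 3 never called in cells containing Hic-5 that kept the largest share in both double depletions, the 3 mixed chains with the most members called only without Hic-5, and up to 8 within 50 kb of a listed glucocorticoid target. Some chains chosen by these rules are not reported here. GADD45B and genes of the other lists are named because their counts were 5 or fewer.

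Motifs were counted on hg38 on both strands. The lists fit this build, with 0 chromosome names absent and 0 peaks beyond sequence ends. Genes were protein-coding genes of GENCODE 44 with their canonical TSS. Alternatives were other chaining distances and sizes, overlap, list thresholds and lengths, close summits, motif windows and gene distances. Overlap, chaining and motif search were tested on simulated data. Python 3.11.15, NumPy 2.4.6, SciPy 1.17.1, pandas 2.3.3 and Matplotlib 3.10.9 were used. The input libraries were not analysed separately.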

Additional observations from a re-analysis of the deposited data

How the results depend on the processing

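No paired analysis was possible because each list pools both replicates, and leaving out a replicate was not possible for the same reason. Of 58 values recomputed under the alternatives, 36 stayed inside the interval of the reported share or within 1.5 times the reported count. The number of chains was 157 with summits at most 5 kb apart, 562 with 25 kb (where 18 glucocorticoid targets had a chain), 116 for chains of 4 or more, 179 with every list filtered at the common −log10 q-value of 14.2, and 11 with lists reduced to the 1278 GBR of the shortest. Members called in siCHD9/siHic5 were 35.0% with 5 kb. Chains of 4 or more gave 38.0% of members called in siNS/siNS, 37.7% in siCHD9/siHic5 and 46.4% in siBRM/siHic5, with 79.3% of chains mixed. The common threshold gave 54.1% called in siBRM/siHic5 and 57.3% with a GRE match. The reduced lists, whose chains hold only the strongest GBR (40 members), gave 87.5% called in siNS/siNS, 82.5% in siCHD9/siHic5, 90.0% in siBRM/siHic5, 36.4% of chains mixed, the strongest member called in 100% of 4 mixed chains, 77.5% with a GRE match, and 2 glucocorticoid targets with a chain. GRE matches were found at 62.7% of members in 1-kb windows and 14.4% with no mismatch, against 74.3% and 19.1% of lone GBR. The strongest member of mixed chains was called in 88.2% to 93.0% under the alternatives other than the reduced lists. Calls depend on each list's depth and cutoff, and members under 1 kb apart may share fragments.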

Other observations

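Several GRE words recurred among the members, and the most frequent was noticed after their values were seen. Of 3777 distinct 13-base words matching the GRE pattern in the siHic5/siNS list, GAACAGCATGTGC was found at the most GBR, 32 of 9533 (0.336%), and at 2 of 18604 windows 20 kb to either side. It was found at 7 chain members, 4 of them called with Hic-5 present and 3 called only without it. In the DDIT4 chain it lay at member 2 (−log10 p-value 103) and in the CRISPLD2 chain at member 3 (58.6), both called in all 6 lists. In the chain near PTPN1 it lay at member 2 (18.8), called in siHic5/siNS, siBRM/siNS and siCHD9/siHic5. In the ANGPTL4 chain it lay at member 4 (13.8), called in siHic5/siNS only. Over the whole list, 17 of the 32 GBR with this word (53.1%) were called with Hic-5 present, against 27.8% of all GBR. The 2 shares are not alike, since the word matches every defined position. Such matches were found at 28.5% of lone GBR called with Hic-5 present and 15.9% of those called only without it. The same 13 bases therefore lay under strong and weak GBR, called and not called with Hic-5 present.

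The second most frequent word, GTACATTGTGTCT, has 1 mismatch. Chain members were 13.5% of the list, so few of a small number of GBR would be members in any case. This word was found at 27 GBR of the list and at 0 of the 1291 chain members, and 3 of the 27 (11.1%, against the same 27.8%) were called with Hic-5 present. Their median −log10 p-value was 16.4, against 28.6 for the GBR with the first word. Whether these words lie in repeated elements was not examined.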
